A study of Sus scrofa with 2 samples.

Results

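The subject is miR-126, read in both of its arms, miR-126-5p and miR-126-3p, in small RNA of whole pig testis. The animals were Junmu-1 boars, of an indigenous Chinese breed with a white coat. Its tags were found by name: of 1124 miRNA names in the lists, counted without species, copy number and arm, 1 was miR-126, and no tag was named miR-126a or miR-126b. The libraries were made from the pooled testis RNA of 3 boars aged 180 days, after sexual maturity, and of 3 boars aged 30 days, before it. The labels name no treatment at either age, and each age has 1 library, so there is no replicate spread and no test. Values are raw read counts of distinct sequence tags that the authors matched to known miRNAs, scaled here to reads per 1000000 miRNA-matched reads (RPM). The 180-day list held 852209 reads in 28643 tags and the 30-day list 7525725 reads in 82288 tags, so that 3 reads, the limit that a count of 0 allows, made 3.52 RPM at 180 days and 0.399 RPM at 30 days. All intervals are exact 95% intervals that take in the error of counting alone, so they set 1 library against another and not 1 age against another, and reads amplified by PCR are not independent molecules.

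A miRNA is made from a hairpin, whose 2 arms are freed by the enzymes Drosha and Dicer as a short duplex. The arm that is kept in an Argonaute protein finds its targets mainly through the seed, bases 2 to 8 from its 5′ end, so that a start shifted by 1 base gives another seed. miR-126 lies in an intron of EGFL7, a gene of endothelial cells, and is known in mouse and zebrafish for its part in vessel integrity. miR-126-3p is known to repress SPRED1 and PIK3R2, inhibitors of growth factor signalling, and miR-126-5p to repress DLK1 in mouse endothelium. Blood stem cells and platelets also carry miR-126. In bulk tissue, fewer cells of a type and less RNA per cell cannot be told apart.

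The sequences below are the deposited miRNA entries and the leading tags of the starts described here, written as DNA, 5′ to 3′, with the seed in capitals. They are shown because the libraries differed in where miR-126-3p began. Starts are counted from the first base of the mouse entry of each arm, which is start 0.
miR-126-5p, mouse entry and leading tag at start 0: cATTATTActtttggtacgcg
miR-126-5p, leading tag at start +1: aTTATTACttttggtacgcg
miR-126-3p, leading tag at start -1: cTCGTACCgtgagtaataatgc
miR-126-3p, mouse entry and leading tag at start 0: tCGTACCGtgagtaataatgcg
miR-126-3p, cattle entry and leading tag at start +1: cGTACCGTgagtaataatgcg
miR-126-3p, leading tag at start +2: gTACCGTGagtaataatgcg
Bases 1 to 10 of miR-126-5p are the reverse complement of bases 11 to 20 of miR-126-3p, counted from the 5′ end of each mouse entry. None of these 6 seeds occurred at bases 2 to 8 of any other entry named in the lists, 0 of 1933 names besides those of miR-126. The miR-126-5p tags all carried the mouse name. The miR-126-3p tags carried names from mouse, cattle, zebrafish, chicken and, for 1 read at 30 days, a sea squirt, so that a name tells the nearest entry and not the species.

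Both arms were present at both ages, and miR-126-5p was the more read arm. miR-126-5p had 360 reads (422 RPM) in the 180-day library and 1675 reads (223 RPM) in the 30-day library. miR-126-3p had 176 reads (207 RPM) in the 180-day library and 1195 reads (159 RPM) in the 30-day library. By RPM, miR-126-5p ranked 99th among the miRNAs at 180 days and 110th at 30 days, and miR-126-3p ranked 131st and 125th at these ages. Together the arms took 0.0629% of the miRNA-matched reads at 180 days and 0.0381% at 30 days.

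On the RPM scale both arms stood higher at 180 days, with RPM ratios of 180-day over 30-day of 1.90 for miR-126-5p (1.69 to 2.13) and 1.30 for miR-126-3p (1.10 to 1.52). With tags of 2 or more reads alone, the ratios were 1.77 for miR-126-5p (1.56 to 2) and 1.18 for miR-126-3p (0.984 to 1.4). The last of these intervals included 1. This limit took a larger share of reads from the shallower 180-day library. It removed 45 of 360 miR-126-5p reads at 180 days and 81 of 1675 at 30 days. For miR-126-3p it removed 28 of 176 and 67 of 1195 reads at these ages. Neither arm reached the 2-fold rule, which asks for a ratio of at least 2 (higher) or at most 0.5 (lower) and an interval without 1. Of the 441 miRNAs whose counts in the libraries summed to at least 20, this rule called 30.2% higher and 11.1% lower. The 441 were counted by name. Some, such as miR157a, had no mammalian entry, and like names such as miR-101 and miR-101a were counted apart. The median log2 ratio of the 441 was 0.25, against 0.92 for miR-126-5p and 0.38 for miR-126-3p. Counted from the highest ratio, miR-126-5p was 147th and miR-126-3p 204th. With both arms summed, miR-126 had 629 RPM at 180 days and 381 RPM at 30 days, a ratio of 1.65 (1.5 to 1.81).

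The direction of these ratios depended on what the reads were scaled to. With TMM scaling the ratio was 0.999 (0.889 to 1.12) for miR-126-5p and 0.684 (0.581 to 0.802) for miR-126-3p. Set against all reads of each library, whose smallest possible totals were inferred from the tag numbers, it was 0.227 for miR-126-5p (0.202 to 0.255) and 0.156 for miR-126-3p (0.132 to 0.182). The intervals leave out the error of these totals, whose size is not known. In the 180-day library 7 tag numbers came before the first listed tag, against 0 in the 30-day library. These scalings moved the log2 ratio of every miRNA alike, by -0.93 for TMM and by -3.06 for the whole library. The TMM factors were computed over all 1325 miRNA arms by name, with no minimum of reads, at unequal depths of the libraries. Their shift was larger in size than 0.25, the median log2 ratio of the 441 miRNAs with 20 or more reads. TMM scaling on those 441 alone was not done. The shares of arms, starts and lengths given below are taken within miR-126 and do not change with the scaling.

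**Figure D1:**
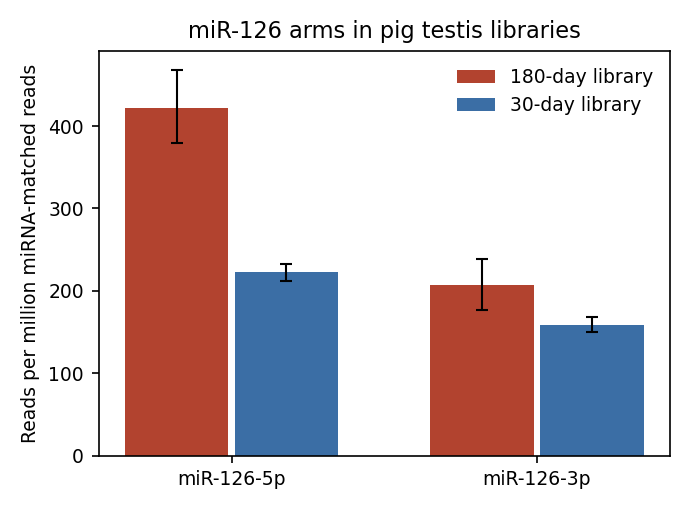
Reads per 1000000 miRNA-matched reads (RPM) of each miR-126 arm in the 180-day and the 30-day library, with exact Poisson 95% intervals of the counts. miR-126-5p stood at 422 RPM at 180 days and 223 RPM at 30 days, and miR-126-3p at 207 and 159 RPM at these ages.

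The balance of the arms leaned further to miR-126-5p at 180 days. It held 67.2% of the miR-126 reads in the 180-day library (63.0 to 71.1%) and 58.4% in the 30-day library (56.5 to 60.2%), and the intervals did not overlap. There were 2.05 reads of miR-126-5p for each read of miR-126-3p at 180 days and 1.40 at 30 days, and these differed by an odds ratio of 1.46 (1.20 to 1.78). The change of 8.80 percentage points ranked 14th of the 111 precursors with both arms listed and 50 or more reads in each library, whose median change was 0.770 points. Precursors with nearly all reads in 1 arm, such as miR-21 (0.00153 points), have little room to change and count in that median. Those with more even arms changed by unlike amounts, given here as the share of 1 named arm. It changed by -11.8 points for miR-532-5p, -7.18 for miR-424*, -1.82 for miR-106b* and -0.34 for miR-365*. The rank of miR-126 among precursors with more even arms alone was not taken. The miR-126 change stayed under the 20 points set as a rule, which 0.901% of the precursors reached. The largest changes of that kind were 27.1 points for the share of miR-132*, -19.9 points for miR-151-5p and -15.7 points for miR-362-5p.

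The most read start of miR-126-3p differed between the libraries. At 180 days its most read start was +1, with 98 of 176 reads (55.7%, 48.0 to 63.2%), and start 0 held 48 reads (27.3%, 20.8 to 34.5%). At 30 days the most read start was 0, with 618 of 1195 reads (51.7%, 48.8 to 54.6%), and start +1 held 357 reads (29.9%, 27.3 to 32.6%). The leading seed of miR-126-3p was therefore GTACCGT in the 180-day library and CGTACCG in the 30-day library. Among reads that ended at the same 3′ base as the mouse entry, the order was the same, with 39 reads at start +1 and 20 at start 0 in the 180-day library, against 160 and 291 in the 30-day library (odds ratio 3.55, 1.94 to 6.63). The tags identical to a deposited entry cannot weigh the starts evenly, since start 0 has entries of 21, 22 and 23 nucleotides and start +1 the cattle entry of 21 nucleotides alone. Taken as they are, these tags placed 52.7% of their miR-126-3p reads at start 0 in the 180-day library (38.8 to 66.3%) and 68.5% in the 30-day library (64.1 to 72.6%), so that start 0 held more of them at both ages, with overlapping intervals. The cattle entry's tag had 26 reads at 180 days, against 18 for the mouse entry's and 11 for the zebrafish entry's.

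For each read at start 0 there were 2.04 reads at start +1 at 180 days and 0.578 at 30 days, an odds ratio of 3.53 (2.41 to 5.22). The outer starts were minor at both ages. Start -1 held 10.8% of the miR-126-3p reads in the 180-day library (6.63 to 16.3%) and 8.87% in the 30-day library (7.32 to 10.6%). For start +2 these shares were 6.25% (3.16 to 10.9%) and 9.29% (7.70 to 11.1%).

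miR-126-5p began at the same base in both libraries. Start 0 held 330 of 360 reads at 180 days (91.7%, 88.3 to 94.3%) and 1539 of 1675 reads at 30 days (91.9%, 90.5 to 93.1%). Start +1 held 7.22% in the 180-day library (4.77 to 10.4%) and 6.57% in the 30-day library (5.43 to 7.86%), and the intervals overlapped.

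**Figure D2:**
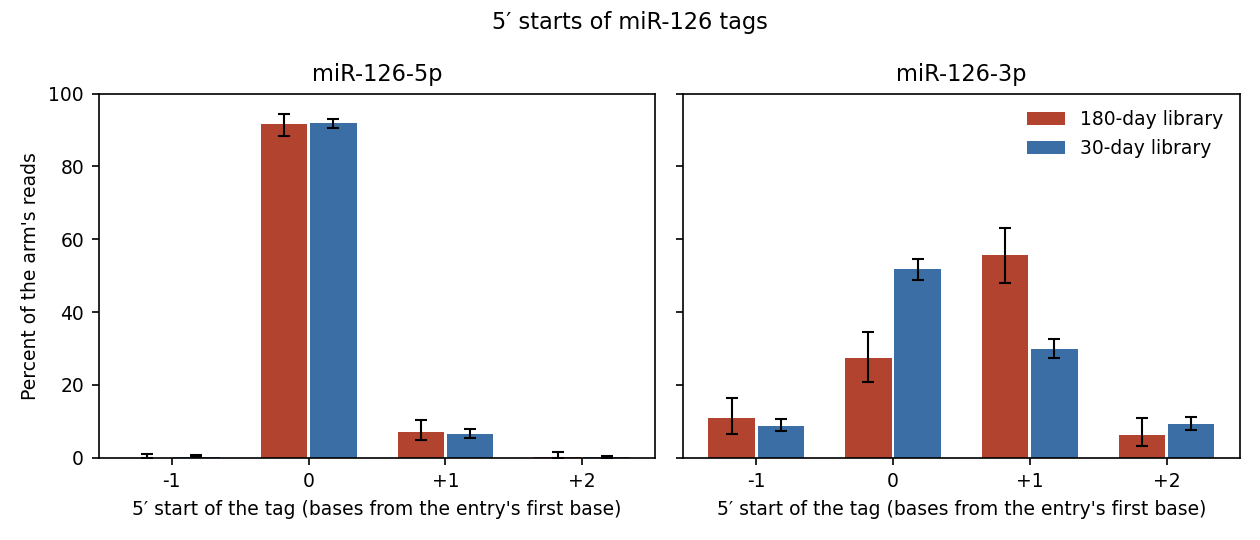
Percent of the reads of miR-126-5p (left) and miR-126-3p (right) by the 5′ start of the tag, in bases from the first base of the mouse entry, with exact 95% intervals. In miR-126-3p start +1 held 55.7% of the reads at 180 days and 29.9% at 30 days, while start 0 of miR-126-5p held 91.7% and 91.9% at these ages.

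Against other miRNA arms, this shift in miR-126-3p was large. Starts were counted in 197 arms with 50 or more reads in each library, from the most read tag of each arm and leaving out tags that could be placed only with a gap. The largest change of any start's share reached 20 percentage points in 4 arms, or 2.03%, and its median was 1.33 points. miR-126-3p had the largest change of the 197, 25.3 points at start +1, and miR-126-5p ranked 129th, with 0.965 points. The next arm was miR-411, with 22.8 points, which had 66 reads at 180 days. With a minimum of 200 reads in each library miR-126-3p itself dropped out, having 172 such reads at 180 days, and 2 arms with a change of 20 points were left, miR-1274a and miR-1260. Chance alone gives larger changes to arms with fewer reads, and no test set this rank against it.

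**Figure D3:**
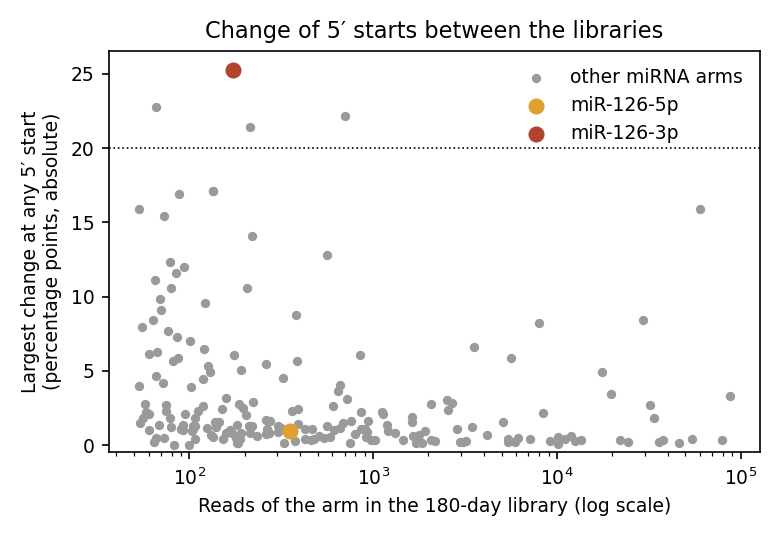
Largest change of the share of any 5′ start between the 180-day and the 30-day library, in absolute percentage points, against the arm's reads at 180 days, for 197 miRNA arms; the dotted line marks 20 points. miR-126-3p lies at 25.3 points and miR-126-5p at 0.965 points.

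Split by start, the reads of miR-126-3p gave ratios on both sides of 1. The start 0 form had 56.3 RPM at 180 days and 82.1 RPM at 30 days, giving a ratio of 0.686 (0.5 to 0.921). The start +1 form had 115 RPM at 180 days and 47.4 RPM at 30 days, giving a ratio of 2.42 (1.92 to 3.04), past the 2-fold rule. The ratio of 1.30 for the whole arm thus joins a form with fewer and a form with more RPM at 180 days. Set against all reads of each library, both forms were lower at 180 days, with ratios of 0.082 at start 0 and 0.29 at start +1. With TMM scaling the ratios were 0.361 at start 0 and 1.28 at start +1, and start +1 was no longer past the rule. With tags identical to an entry alone, scaled to the sum of such tags, the start 0 ratio was 0.84 (0.554 to 1.23), whose interval included 1. The start +1 ratio of such tags was 1.64 (1.04 to 2.49), from the 26 and 150 reads of the cattle entry's tag. At start 0 alone there were 6.88 reads of miR-126-5p for each read of miR-126-3p at 180 days and 2.49 at 30 days.

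**Figure D4:**
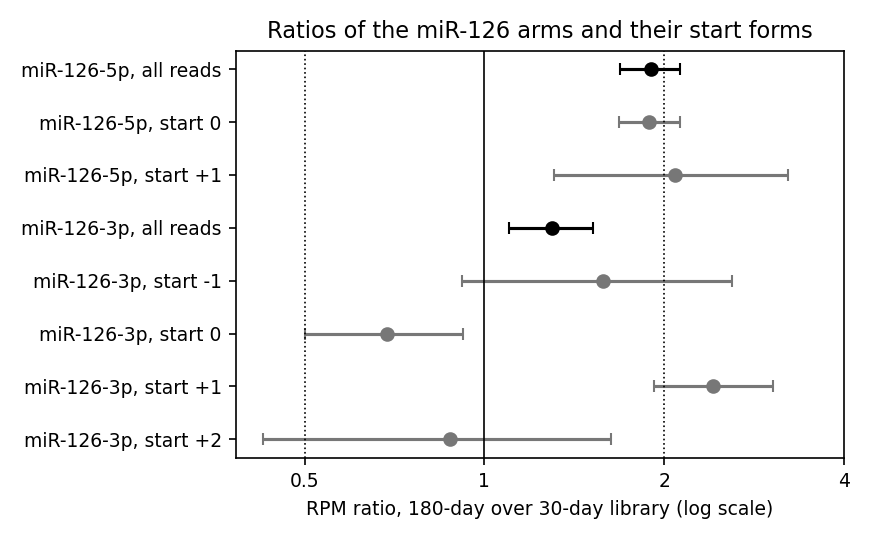
RPM ratios of the 180-day over the 30-day library on a log axis, with exact 95% intervals, for each miR-126 arm (black) and for its reads by 5′ start (grey); dotted lines mark 2-fold. The start 0 form of miR-126-3p has a ratio of 0.686 and its start +1 form a ratio of 2.42.

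The leading tags were read by start as well. The leading start 0 tag of miR-126-3p, identical to the mouse entry, had 18 reads in the 180-day library and 239 in the 30-day library (ratio 0.665, 0.387 to 1.07). The leading start +1 tag, identical to the cattle entry, had 26 reads in the 180-day library and 150 in the 30-day library (ratio 1.53, 0.968 to 2.33). Both of these intervals included 1, while the reads of the start +1 tag for each read of the start 0 tag, 1.44 at 180 days and 0.628 at 30 days, gave an odds ratio of 2.30 (1.17 to 4.61), which no scaling changes. Scaled to entry-identical tags in place of all miRNA-matched reads, the start +1 tag has the ratio of 1.64 given above. The start +1 tags with an added base stood further apart, at 22 reads at 180 days and 67 at 30 days with an added T (ratio 2.90, 1.71 to 4.75), and at 20 and 86 reads with an added A (ratio 2.05, 1.20 to 3.37). The start 0 tag with an added A had 10 reads in the 180-day library and 132 in the 30-day library (ratio 0.669, 0.314 to 1.27). They read as follows.
miR-126-3p, start +1 with T added: cGTACCGTgagtaataatgcgt
miR-126-3p, start +1 with A added: cGTACCGTgagtaataatgcga
miR-126-3p, start 0 with A added: tCGTACCGtgagtaataatgcga

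Over starts -1, 0 and +1 of miR-126-3p, later starts went with later ends. Tags were called longer or shorter by where they ended against the mouse entry. Of the start +1 reads, 54.1% ended beyond the entry in the 180-day library (43.7 to 64.2%) and 51.3% in the 30-day library (45.9 to 56.6%). Of the start 0 reads, 27.1% did so in the 180-day library (15.3 to 41.8%) and 30.1% in the 30-day library (26.5 to 33.9%). Of the start -1 reads, 68.4% ended short of the entry in the 180-day library (43.4 to 87.4%, 19 reads) and 73.6% in the 30-day library (64.1 to 81.7%). The mean length was accordingly close across these starts: 22.4, 21.9 and 21.6 nucleotides for starts -1, 0 and +1 at 180 days, and 22.2, 22 and 21.5 nucleotides at 30 days. Within each of these starts the intervals of the libraries overlapped. Start +2, with 11 reads at 180 days, did not continue the order: 45.5% of its reads ended beyond the entry in the 180-day library (16.7 to 76.6%) and 27.9% in the 30-day library (19.8 to 37.2%).

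Over the whole arm, 41.5% of the miR-126-3p reads ended beyond the entry in the 180-day library (34.1 to 49.1%) and 33.7% in the 30-day library (31.0 to 36.5%). The most read length of miR-126-3p was 22 nucleotides, with 42.0% of its reads in the 180-day library (34.7 to 49.7%) and 44.8% in the 30-day library (41.9 to 47.6%). Tags of 23 nucleotides held 11.4% in the 180-day library (7.08 to 17.0%) and 17.6% in the 30-day library (15.5 to 19.9%). None of these pairs of intervals was separate.

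The 3′ end of miR-126-5p was spread mainly over 2 lengths. Tags of 21 nucleotides held 40.3% of its reads in the 180-day library (35.2 to 45.5%) and 44.9% in the 30-day library (42.5 to 47.3%), and tags of 22 nucleotides held 41.9% (36.8 to 47.2%) and 37.1% (34.8 to 39.5%) at these ages. The tag equal to the entry had 116 reads in the 180-day library and 636 in the 30-day library (ratio 1.61, 1.31 to 1.97). With 1 A added there were 87 and 338 reads, a ratio of 2.27 (1.77 to 2.88), and with 1 T added 47 and 205 reads, a ratio of 2.02 (1.44 to 2.79). Set against the tag equal to the entry, the A-added tag had 0.750 reads for each of its reads at 180 days and 0.531 at 30 days, an odds ratio of 1.41 (1.02 to 1.94). For the T-added tag these were 0.405 and 0.322, with an odds ratio of 1.26 (0.845 to 1.85), whose interval included 1. These tags read as follows.
miR-126-5p, start 0 with A added: cATTATTActtttggtacgcga
miR-126-5p, start 0 with T added: cATTATTActtttggtacgcgt

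Where exactly 1 base was added to an arm, it was mostly A or T. In miR-126-5p it was A in 63.6% of such reads in the 180-day library (55.7 to 71.0%) and 59.3% in the 30-day library (55.4 to 63.0%). In miR-126-3p it was A in 57.8% in the 180-day library (44.8 to 70.1%) and 71.8% in the 30-day library (67.0 to 76.2%), and T in 42.2% (29.9 to 55.2%) and 27.9% (23.5 to 32.7%) at these ages. For all other miRNAs, over tags equal to an entry with 1 base added, A made 54.7% at 180 days and 56.3% at 30 days. The miR-126 shares instead took all reads ending 1 base past the mouse entry, at any start and with or without changes inside. The shares of miR-126 and of the other miRNAs are therefore not like measures. Whether an added base is encoded by the pig hairpin was not analysed here.

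Changes inside the tag, more than 3 bases from the 3′ end of the entry, were few. A mismatch there was carried by 9.44% of the miR-126-5p reads in the 180-day library (6.63 to 12.9%) and 6.87% in the 30-day library (5.70 to 8.18%), and by 6.25% of the miR-126-3p reads in the 180-day library (3.16 to 10.9%) and 5.27% in the 30-day library (4.07 to 6.70%). Positions of substitutions were counted from 1 at the 5′ end of the mouse entry. Summed over both libraries, the most read were C9T in miR-126-5p, with 4 reads at 180 days and 25 at 30 days, and C7T in miR-126-3p, with 0 and 11 reads. These were not the most read at 180 days, where A2C in miR-126-5p had 5 reads and A11C in miR-126-3p had 3. Tags that could be placed only with bases missing held 1.94% of the miR-126-5p reads in the 180-day library (0.785 to 3.97%) and 3.94% in the 30-day library (3.06 to 4.99%). Sequencing error and variation between the pooled boars cannot be told apart in these counts.

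The miRNAs nearest to each arm in log2 ratio, among 279 with a mammalian entry and 100 or more reads, were miR-365, miR-365* and miR-378 for miR-126-5p, with ratios of 1.90, 1.88 and 1.86, and miR-217, miR-23a and miR-30c* for miR-126-3p, each with a ratio of 1.29. This likeness rests on 1 ratio between 2 libraries. In mean RPM, miR-423-3p and miR-34c-3p came next above miR-126-5p, and miR-92b and miR-203 next below it. miR-320b and miR-29b came next above miR-126-3p, and miR-30b and miR-98 next below it.

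Other miRNAs of vessels and blood were compared beside miR-126. Over all 441 miRNAs the rule called 30.2% higher and 11.1% lower on the RPM scale, and 15.9% higher and 33.3% lower with TMM scaling, and the counts of each list are to be read against these shares. On the RPM scale, 3 of the 4 arms of miR-143 and miR-145, miRNAs of smooth muscle, passed the rule as higher at 180 days and 0 as lower. Their median log2 ratio was 1.58. With TMM scaling 0 of these arms were higher. Against all reads of each library all 4 were lower, as were 370 of the 441 miRNAs. Their sum was 17994 RPM at 180 days and 6581 RPM at 30 days, with miR-143 at 14731 and 5342 RPM. Of 41 arms linked to blood vessel growth, 6 passed the rule as higher (14.6%) and 5 as lower (12.2%), and their median log2 ratio was -0.14, against 0.25 over all miRNAs. With TMM scaling 3 were higher (7.32%) and 22 lower (53.7%), beside 15.9% and 33.3% over all miRNAs. The list's most abundant members were miR-10b (ratio 0.948, 0.926 to 0.970), miR-23a (1.29, 1.24 to 1.33), miR-16 (2.23, 2.16 to 2.31) and miR-23b (1.26, 1.21 to 1.31).

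Of the 4 arms of the red blood cell miRNAs, 1 passed the rule as higher and 0 as lower on the RPM scale, and their median log2 ratio was -0.23. With TMM scaling 0 were higher and 3 lower. With 4 arms, each arm is 25% of the list, beside 30.2% higher and 11.1% lower over all miRNAs on the RPM scale. The 1 arm called higher was miR-451, at 3774 RPM at 180 days and 1535 RPM at 30 days, while miR-486-5p had a ratio of 0.697 (0.533 to 0.898), miR-144* of 0.868 (0.614 to 1.20) and miR-144 of 0.833 (0.553 to 1.21). Of 7 arms of white blood cells and platelets, 2 passed the rule as higher (28.6%) and 1 as lower (14.3%), beside 30.2% and 11.1% over all miRNAs. With TMM scaling 1 was higher (14.3%) and 2 were lower (28.6%), beside 15.9% and 33.3%. These shares were near those over all miRNAs. Their median log2 ratio was 0.28 and their sum 664 RPM at 180 days and 349 RPM at 30 days. Among them miR-146a had a ratio of 4.59 (3.98 to 5.27), miR-342-3p of 1.22 (0.960 to 1.53), miR-142-5p of 1.15 (0.896 to 1.45) and miR-150 of 0.836 (0.599 to 1.14). The part of blood left in the tissue in the miR-126 values was not tested.

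**Figure D5:**
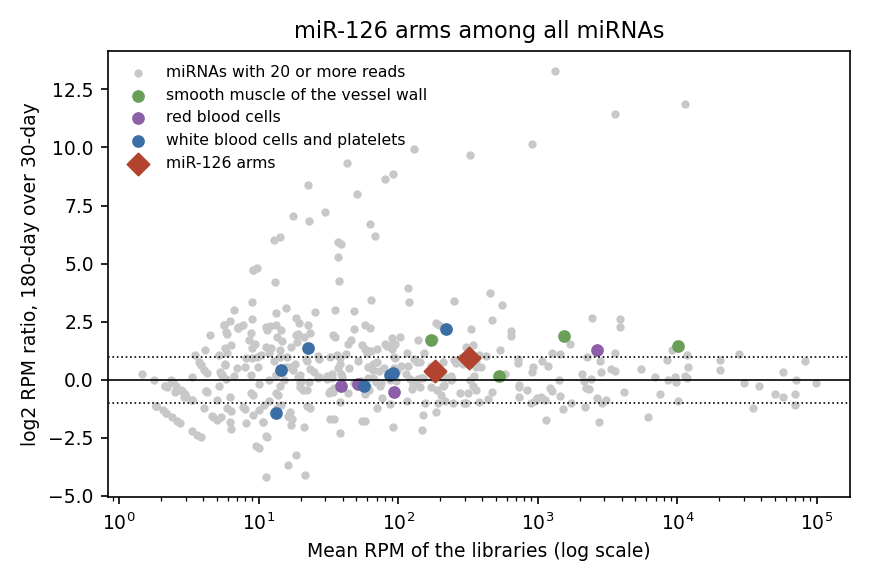
The log2 RPM ratio of the 180-day over the 30-day library against the mean RPM for 441 miRNAs with 20 or more reads, with a count of 0 set to 3 reads; dotted lines mark 2-fold. On this RPM scale miR-126-5p (diamond) lies at 0.92 and miR-126-3p at 0.38, both between the 2-fold lines.

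The testis label was checked by miRNAs of gonad and germ cells. miR-202, a miRNA of the gonads, summed to 110872 RPM over both arms at 180 days and 68481 RPM at 30 days. Its arms went opposite ways, with RPM ratios of 1.77 for miR-202-5p (1.75 to 1.78) and 0.654 for miR-202-3p (0.635 to 0.673). Neither arm passed the 2-fold rule on the RPM scale. miR-34b, miR-34c and the miR-449 members, of meiotic and later germ cells, had 35278 RPM in all at 180 days, against 11.4 RPM at 30 days. The 2-fold rule called 7 of 7 measured arms higher on the RPM scale, beside 30.2% over all miRNAs. With TMM scaling it also called 7 of 7 higher, beside 15.9%. These germ cell miRNAs took more of the 180-day pool, against which the miR-126 RPM were scaled. Their part in the miR-126 ratios was not tested.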

How the data were processed

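Small RNA of the 180-day and the 30-day testis was analysed. Per the labels' protocols, each library came from 1 pool of 3 boars, gel-sized small RNA was ligated and amplified by PCR, and no molecular identifiers are named. The authors deposited raw read counts per distinct tag with 1 miRNA name each. The aligner is not given in the sources used here, nor are the miRBase release and the genome build. The deposited alignment score and the other columns, which hold lengths and mismatched and unmatched bases, served only to select perfect tags.

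Tags were assigned by name. Entries with the same name were merged into 1 arm when they shared 10 bases. RPM, ratios with exact conditional intervals and shares with exact Clopper-Pearson intervals were computed with Python 3.11.15 and scipy 1.17.1. Each miR-126 tag was placed on the mouse entry of its arm, ungapped with up to 2 mismatches and otherwise with 1 gap of up to 4 bases. TMM factors came from edgeR 4.0.16 and median-of-ratios factors from DESeq2 1.42.0. Both were computed over all miRNA arms by name, with no minimum of reads. Whole-library totals were inferred from the tag numbers, along which counts never rose, and the lowest were 12035098 reads at 180 days and 12711254 at 30 days. The code was tested on simulated data. The member and the lists were chosen with earlier results of these data known. The miRNAs named were up to 4 of the most abundant of each list, the 3 nearest in ratio and the 2 next above and below in mean RPM for each arm, the 3 precursors with the largest arm change, and the 5 most read tags of each arm with those leading a start or length that held 1% or more of it. miR-411, miR-1274a and miR-1260 were named after their values were seen, as were miR-21, miR-532, miR-424, miR-106b and miR-365 among the arm changes. Of the tags only those that the results turn on are printed.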

Additional observations from a re-analysis of the deposited data

How the results depend on the processing

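No paired analysis was possible because each age had 1 library, and for the same reason no replicate could be left out. Of 169 alternative values, 100 kept their direction and moved by less than their interval (counts by less than 1.5 times), 68 moved and 1 reversed. With 1 pooled library per age, the spread between boars is unknown, and the shares of miR-126-3p at 180 days rest on 176 reads.

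The scaling set the ratios, and the TMM and median-of-ratios factors took in miRNAs of any read count. With TMM, the ratio was 0.999 for miR-126-5p, 0.684 for miR-126-3p, 0.868 for both arms, 0.361 for start 0 and 1.28 for start +1 of miR-126-3p. Median-of-ratios scaling gave 1 for miR-126-5p, 0.685 for miR-126-3p, 0.869 for both arms, 0.361 for start 0 and 1.28 for start +1. Both scalings called 70 of all miRNAs higher and 147 lower, 3 angiogenesis-linked arms higher and 22 lower, 0 smooth muscle arms higher, 0 red blood cell arms higher and 3 lower, and 1 white blood cell and platelet arm higher and 2 lower. Against the lowest whole-library totals, the ratio was 0.227 for miR-126-5p, 0.156 for miR-126-3p, 0.197 for both arms and 0.082 for start 0, and that of start +1 reversed to 0.29, from the library totals alone. There 25 miRNAs were higher and 370 lower, with 0 angiogenesis-linked arms higher and 38 lower, 0 smooth muscle arms higher and 4 lower, 0 red blood cell arms higher and 4 lower, and 0 white blood cell and platelet arms higher and 6 lower.

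Restriction to tags identical to a deposited entry left ratios of 1.09 (0.81 to 1.44) for miR-126-3p and 1.45 for both arms. For the starts of miR-126-3p it left 0.84 (0.554 to 1.23) at start 0 and 1.64 at start +1. It called 65 miRNAs higher and 28 lower, and 1 white blood cell and platelet arm higher and 0 lower. By its construction, this keeps of miR-126-5p the tag equal to the mouse entry alone, and of miR-126-3p 3 lengths at start 0 and 1 at start +1. Thus start 0 and the length of 21 nucleotides each held 100% of the miR-126-5p reads at both ages, and longer 3′ ends held 0% of them. In miR-126-3p, start 0 held 52.7% at 180 days and 68.5% at 30 days, start +1 47.3% at 180 days, 22 nucleotides 32.7% and 50.2%, and longer ends 0% and 0.21% at these ages. The number of precursors with an arm change of 20 points was 2 with these tags and 2 with tags of 2 or more reads, and 0 at a minimum of 200 reads in each library, where 2 arms other than miR-126-3p, which this minimum removes, had a start change of that size. With a minimum of 100 reads 75 miRNAs were called higher, and with no minimum 241. The ratios of the start forms, the odds ratios between single tags and the background of start changes were chosen as results after the data were seen. For the values that moved, the cause was not tested beyond what is stated here.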
